A study of Mus musculus with 4 samples.

Results

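The 10 genes of the syntenin, syndecan and glypican families described here were followed in AML12, a line of immortalised mouse liver cells, between flat (2D) and Matrigel-embedded (3D) cultures. The genes were chosen by symbol with their TPM (transcript abundance scaled for gene length and library size) in 3D against 2D already in view. Their values are therefore given here as a description, without p-values. How many were called in the fit across genes is counted below, and nothing is read from that count. Of the 10 symbols, 8 have a row among the 31828 genes of the table, namely Sdcbp and Sdcbp2 (syntenins), Sdc1, Sdc2, Sdc3 and Sdc4 (syndecans), and Gpc1 and Gpc6 (glypicans). Gpc3 and Gpc4 were not analysed here. The 2D group comprised 2 libraries of cells replated in dishes and treated with 1 mM hydroxyurea for 24 h, and the 3D group 2 libraries of cells embedded in Matrigel, a basement membrane extract, with the same drug at 1 mM for 36 h. Hydroxyurea, which blocks DNA replication and holds cells at the G1/S boundary, was thus present in all 4 libraries, and growth dimension and treatment time cannot be told apart. All cells came from a single line, grown in serum with insulin, transferrin, selenium and dexamethasone. Nothing in the labels says that the libraries came from separate cultures. SDs, SEs and p-values therefore measure only spread between these libraries, which may be technical. All SEs, those of members included, and the p-values come from limma, a linear model that shares variance across genes. They thus do not rest on a gene's own libraries alone. In such bulk RNA, fewer cells that express a gene and less RNA per cell cannot be told apart.

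Syndecans and glypicans are cell surface proteoglycans, that is, core proteins carrying long sulfated sugar chains, mostly heparan sulfate. Syndecans cross the membrane and end in a short cytoplasmic tail, whereas glypicans are held in the outer leaflet by a GPI (glycosylphosphatidylinositol) anchor. Their chains bind growth factors, chemokines and lipoproteins, and in the liver Sdc1 takes part in the clearance of remnant lipoproteins. Syntenins are small cytosolic adaptors with tandem PDZ domains, which grip the last residues of syndecan tails and link them to endosomal sorting and exosome formation.

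The site that joins both families is shown first, because every syndecan measured here carries it. The last 99 coding bases of each syndecan (33 codons, stop codon left out) were read 5′ to 3′ from the GENCODE transcripts of build GRCm38, and the capitals mark the final 12 bases, the codons of the PDZ-binding end Glu-Phe-Tyr-Ala.
Sdc1, chr12:8791706-8791804, plus strand: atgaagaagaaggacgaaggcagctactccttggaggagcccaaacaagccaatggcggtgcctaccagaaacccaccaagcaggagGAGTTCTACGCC
Sdc2, chr15:33032439-33032537, plus strand: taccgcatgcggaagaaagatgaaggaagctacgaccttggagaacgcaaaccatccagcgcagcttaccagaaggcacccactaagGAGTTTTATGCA
Sdc3, chr4:130822708-130822806, plus strand: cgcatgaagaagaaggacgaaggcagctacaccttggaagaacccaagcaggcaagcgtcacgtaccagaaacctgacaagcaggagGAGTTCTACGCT
Sdc4, chr2:164426089-164426187, minus strand: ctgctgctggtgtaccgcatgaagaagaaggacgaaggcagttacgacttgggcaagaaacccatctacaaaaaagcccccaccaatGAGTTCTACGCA
The capitals encode the same 4 residues in all 4 genes although the codons differ. These 33-codon ends have a fixed length and were not cut at the membrane, and each pair aligned at 26 to 32 positions. Identical residues made up 84.4% of the aligned positions of Sdc1 and Sdc3 and 82.8% of those of Sdc2 and Sdc4. The other pairs had 60.7% to 73.3%. Over whole proteins the syndecans shared only 40.6% to 49.5% of aligned residues, and the syntenins Sdcbp (298 codons) and Sdcbp2 (292 codons) shared 61.5%. Ser-Gly pairs, the dipeptide at which glycosaminoglycan chains are attached, numbered 5 in Sdc1, 3 in Sdc2, 8 in Sdc3, 3 in Sdc4, 6 in Gpc1 and 5 in Gpc6, as counts of the dipeptide and not of used sites.

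The libraries agreed closely within a culture. Pearson's r across the 14116 genes averaging 1 TPM or more, which are not independent replicates, was 0.991 within 2D, 0.992 within 3D and 0.951 to 0.952 from one culture to the other. All 8 hepatocyte markers averaged at least 1 TPM, although Alb, which encodes albumin, stood at only 0.819 and 1.20 TPM in 2D against 12.7 and 10.0 TPM in 3D. Of the 8, 6 were higher in 3D at a limma adjusted p-value under 0.05, from 2.25-fold for Apoa1 to 23.8-fold for Ttr, and the keratin genes Krt8 and Krt18 were lower. These keratins make up nearly all of the list's summed level, which was 9427 to 9630 TPM in 2D against 5646 to 5724 TPM in 3D. Of the biliary markers 4 of 5 reached that mean, with Spp1 (5.09-fold) and Sox9 (1.56-fold) higher and Krt19 and Krt7 lower in 3D, while their sum was 2294 to 2401 against 2269 to 2357 TPM. None of 4 endothelial markers did, with summed levels of 0.681 to 1.33 TPM in 2D and 0.766 to 1.04 TPM in 3D. Des alone did among stellate and fibroblast markers (list sums 34.9 to 37.4 TPM in 2D, 18.6 to 19.8 TPM in 3D), and Cd68 alone among leukocyte markers (18.5 to 19.3 TPM, then 21.8 to 25.9 TPM). The part of these levels in the results was not tested.

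The members spanned more than 3 orders of magnitude in level, and each family was led by 1 or 2 of its genes. In 2D the order from highest to lowest TPM was Sdcbp, Sdc4, Sdc1, Sdcbp2, Gpc6, Sdc2, Gpc1 and Sdc3. In 3D it was Sdcbp, Sdc1, Sdc4, Sdcbp2, Gpc6, Sdc2, Sdc3 and Gpc1. Sdc1 and Sdc4 therefore changed places, as did Gpc1 and Sdc3 at the bottom. In neither culture did the libraries of neighbouring genes in this order overlap.

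**Figure D1:**
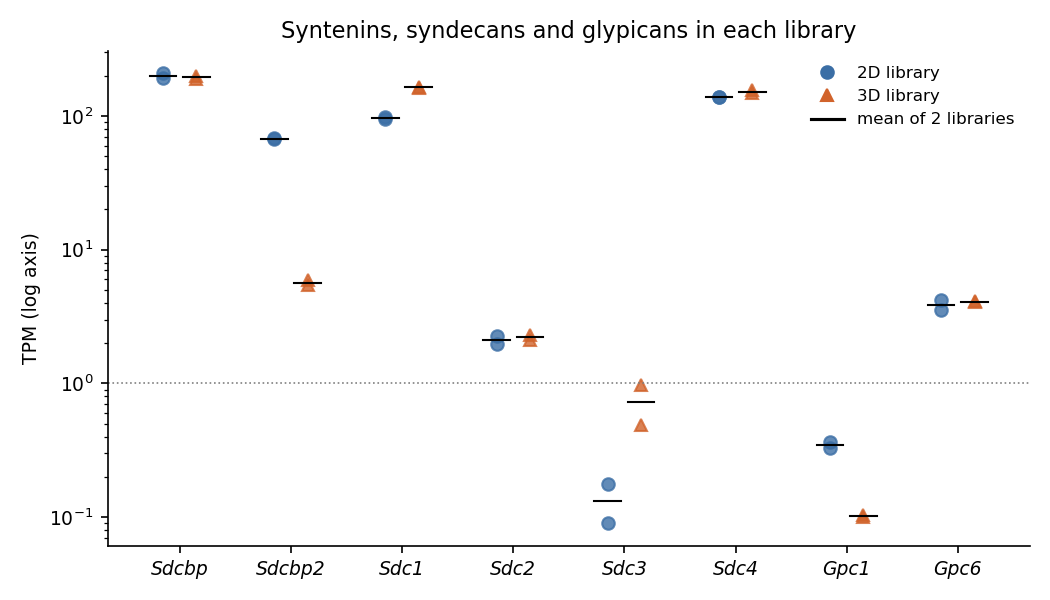
TPM (log axis) of the 8 members with a row, by gene. Circles are 2D libraries, triangles 3D libraries, black bars the means of 2 libraries, and the dotted line marks 1 TPM. Sdcbp2 stands at 67.2 and 68.1 TPM in 2D and at 5.44 and 5.91 TPM in 3D, while Sdcbp overlaps between cultures.

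The syntenins diverged. Sdcbp2, syntenin-2 (ENSMUSG00000027456), measured 67.2 and 68.1 TPM in 2D against 5.44 and 5.91 TPM in 3D. Both 3D libraries lay far below both 2D libraries, with means of 67.7 ± 0.695 and 5.67 ± 0.329 TPM (SD, n = 2 each), an 11.9-fold lower level in 3D and a difference of -3.36 in mean log2(TPM + 1) (SE 0.07). Sdcbp, syntenin-1, the adaptor best known from the exosome pathway, measured 208 and 192 TPM in 2D and 190.0 and 198 TPM in 3D. The Sdcbp libraries of the cultures overlapped, with means of 200.1 ± 11.6 and 194 ± 5.77 TPM (SD, n = 2 each) and a log2 difference of -0.04 (SE 0.06) whose sign turned, to 0.0107 under quantile normalization and to 0.0157 without 2D replicate 1. Its row (ENSMUSG00000028249) spans chromosome 4, 6365650 to 6408423, plus strand.

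The make-up of the family's RNA differed between the cultures. Sdcbp2 contributed 24.4% and 26.2% of summed syntenin TPM in 2D, against 2.78% and 2.89% in 3D. The ratio of Sdcbp to Sdcbp2, which does not depend on how a library is scaled, was 3.10 and 2.82 in 2D and 34.9 and 33.6 in 3D. Summed syntenin RNA was 276 and 260.0 TPM in 2D and 195 and 204 TPM in 3D, without overlap. In rank among the 14116 genes tested, from the highest mean TPM down, Sdcbp2 went from place 3036 in 2D to 10597 in 3D, whereas Sdcbp held places 816 and 813.

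Sdcbp2 (chromosome 2, 151572622 to 151590005, plus strand) has a single protein-coding transcript of 9 exons in the annotation, and no other row of the table overlaps it. Its promoter window, 250 bases before to 50 after the start (RefSeq, GRCm38.p6, chr2:151572373-151572672, plus strand), is printed because this gene differed most. Capitals mark the motifs found. Those searched, on both strands, were the TATA box TATAAA, the GC box GGGCGG, the AP-1 site TGACTCA and the E-box CACGTG.
Sdcbp2: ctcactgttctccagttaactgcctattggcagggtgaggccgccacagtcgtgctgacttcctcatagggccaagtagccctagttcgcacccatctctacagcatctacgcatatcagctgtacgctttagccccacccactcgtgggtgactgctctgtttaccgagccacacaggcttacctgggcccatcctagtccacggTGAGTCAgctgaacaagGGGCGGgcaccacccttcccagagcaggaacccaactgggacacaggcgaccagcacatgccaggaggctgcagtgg
The window holds TGACTCA once, read here on the minus strand, and GGGCGG once, with 10 CpG dinucleotides. Of 32851 RefSeq promoter windows of the same length, 5.20% hold TGACTCA and 35.7% hold GGGCGG, and the median number of CpG is 7. These matches describe letters and not binding.

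The syndecans were carried by Sdc1 and Sdc4 in every library. Sdc1, the main syndecan of epithelial cells (ENSMUSG00000020592, chromosome 12, 8771323 to 8793715, plus strand), had 94.0 and 98.7 TPM in 2D against 163 and 164 TPM in 3D. Both 3D values were above both 2D values, with means of 96.3 ± 3.28 and 163 ± 1.11 TPM (SD, n = 2 each), a 1.70-fold higher level and a log2 difference of 0.76 (SE 0.04). Sdc4, the syndecan of focal adhesions (ENSMUSG00000017009, chromosome 2, 164424247 to 164443887, minus strand), had 137.6 and 137.9 TPM in 2D and 149 and 155 TPM in 3D. The groups were again apart but close, with means of 138 ± 0.204 and 152 ± 4.08 TPM (SD, n = 2 each), a 1.10-fold higher level and a log2 difference of 0.14 (SE 0.04).

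Sdc2 and Sdc3 added little. Sdc2, a syndecan of mesenchymal cells (ENSMUSG00000022261, chromosome 15, 32920723 to 33034935, plus strand), measured 1.98 and 2.26 TPM in 2D and 2.12 and 2.31 TPM in 3D, and the libraries of the cultures overlapped, with a log2 difference of 0.04 (SE 0.12) that was -0.0194 without 2D replicate 1. Sdc3, the syndecan of neural tissue (ENSMUSG00000025743, chromosome 4, 130792537 to 130826319, plus strand), measured 0.176 and 0.0903 TPM in 2D and 0.493 and 0.968 TPM in 3D. Its 3D libraries lay above its 2D libraries, with means of 0.133 ± 0.0604 and 0.731 ± 0.335 TPM (SD, n = 2 each), but all 4 values are under 1 TPM. Depth is unknown, so the counting error at this level is too.

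Within the family, Sdc1 gained on Sdc4. It made up 40.2% and 41.3% of syndecan TPM in 2D and 51.7% and 50.9% in 3D, and Sdc4 58.9% and 57.7% against 47.4% and 48.0%. The ratio of Sdc1 to Sdc4 was 0.684 and 0.716 in 2D and 1.09 and 1.06 in 3D. It was thus below 1 in both 2D libraries and above 1 in both 3D libraries. Summed syndecan RNA was 234 and 239 TPM in 2D and 314 and 322 TPM in 3D. With syntenin sums lower and syndecan sums higher, the ratio of syntenin to syndecan TPM was 1.18 and 1.09 in 2D and 0.621 and 0.633 in 3D.

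**Figure D2:**
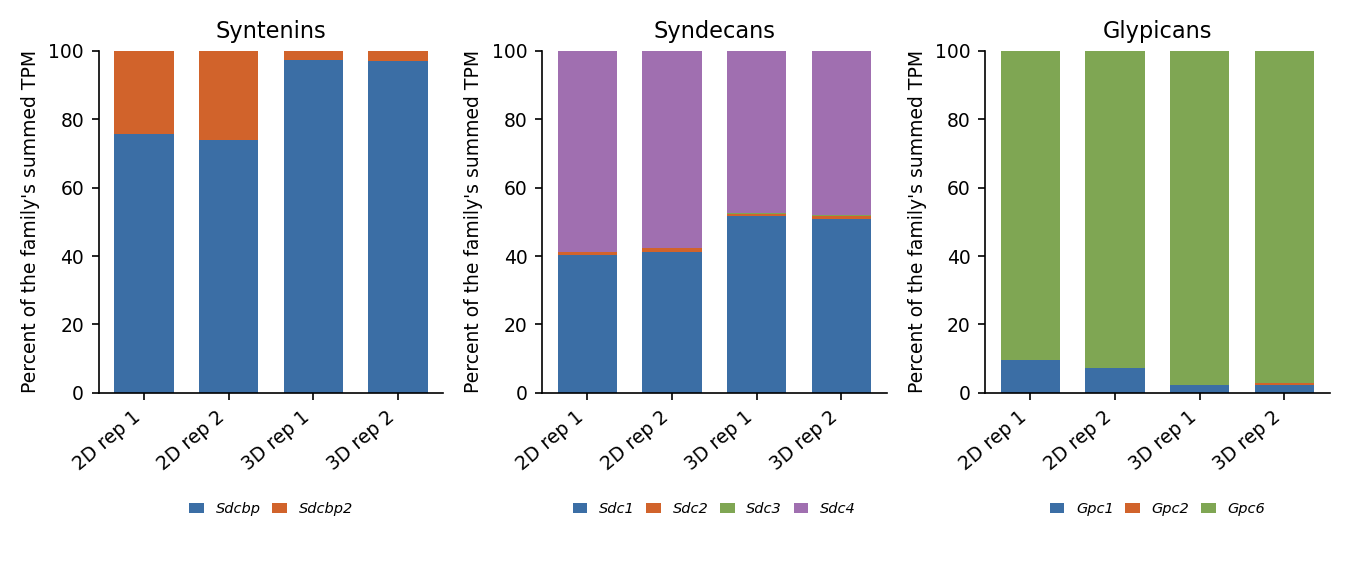
Share of each gene (percent) in the summed TPM of its family, for each library. The bars of a library add up to 100%, Gpc2 is included among glypicans, and Gpc3 and Gpc4 are not. The Sdcbp2 share is 24.4% and 26.2% in 2D and 2.78% and 2.89% in 3D, and the Sdc1 share is above that of Sdc4 in 3D and below it in 2D.

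The promoter windows of Sdc1 (RefSeq, GRCm38.p6, chr12:8771146-8771445, plus strand) and Sdc4 (chr2:164443139-164443438, minus strand) are shown because these genes carry the family and differed in size of change. Capitals again mark the motifs found.
Sdc1: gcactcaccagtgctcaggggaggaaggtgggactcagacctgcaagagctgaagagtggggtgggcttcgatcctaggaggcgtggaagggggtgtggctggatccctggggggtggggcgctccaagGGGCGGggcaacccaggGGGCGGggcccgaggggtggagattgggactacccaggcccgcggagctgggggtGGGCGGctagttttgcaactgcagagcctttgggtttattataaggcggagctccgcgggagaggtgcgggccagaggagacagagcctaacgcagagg
Sdc4: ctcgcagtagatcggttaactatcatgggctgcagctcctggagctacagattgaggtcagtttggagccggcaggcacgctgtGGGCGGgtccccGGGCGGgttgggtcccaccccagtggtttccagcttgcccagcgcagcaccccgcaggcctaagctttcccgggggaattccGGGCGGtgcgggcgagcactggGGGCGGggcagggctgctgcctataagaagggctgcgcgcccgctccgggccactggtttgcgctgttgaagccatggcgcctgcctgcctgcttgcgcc
Sdc1 holds GGGCGG at 3 places and 14 CpG dinucleotides, and Sdc4 holds it at 4 places with 22 CpG. The Sdc3 window, not printed, holds it at 3 places with 44 CpG. TATAAA, found in 13.6% of all windows, and CACGTG, found in 7.15%, are in none of the windows of Sdcbp2, Sdc1, Sdc3 and Sdc4. The promoter table has no entry for Sdcbp, Sdc2, Gpc1 or Gpc6.

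The glypicans measured here were low. Gpc6 (ENSMUSG00000058571, chromosome 14, 116925315 to 117976544, plus strand) was listed at 3.51 and 4.18 TPM in 2D and at 4.15 and 4.04 TPM in 3D. Its libraries overlapped between the cultures, with a log2 difference of 0.08 (SE 0.12) that was -0.0232 without 2D replicate 1. Gpc1, a glypican known from nervous tissue (ENSMUSG00000034220, chromosome 1, 92831645 to 92860779, plus strand), was listed at 0.367 and 0.331 TPM in 2D and at 0.103 and 0.0999 TPM in 3D. Its 3D libraries lay below its 2D libraries, with means of 0.349 ± 0.0260 and 0.102 ± 0.00255 TPM (SD, n = 2 each), all under 1 TPM. Gpc1 also overlaps 2 rows on the opposite strand, the antisense gene Gm29480 and Ankmy1, both under 1 TPM on average. Gpc2, which is not among the 10 genes, was listed at 0 in 3 libraries and at 0.0189 TPM in 1 of the 3D libraries. Gpc6 accordingly made up 90.5% to 97.6% of the TPM summed over Gpc1, Gpc2 and Gpc6 in each library.

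A mean of at least 1 TPM over the 4 libraries was required for the fit across genes, and 6 of the 8 members passed, all but Sdc3 and Gpc1. At an adjusted p-value below 0.05 in limma, a linear model that shares variance across genes, 3 of those 6 were called. Of all genes tested 50.5% were, 23.4% higher and 27.1% lower in 3D, beside 2 members higher and 1 lower. Libraries of the cultures did not overlap for 3 of the 6, beside 77.5% of all genes tested, and for 5 of the 8 with a row, beside 54.1% of all rows. Since the members were picked with this contrast in view, nothing is read from these counts. The difference of Sdcbp2 was the third lowest of the 14116, and Sdc1 ranked 1060 from the highest.

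**Figure D3:**
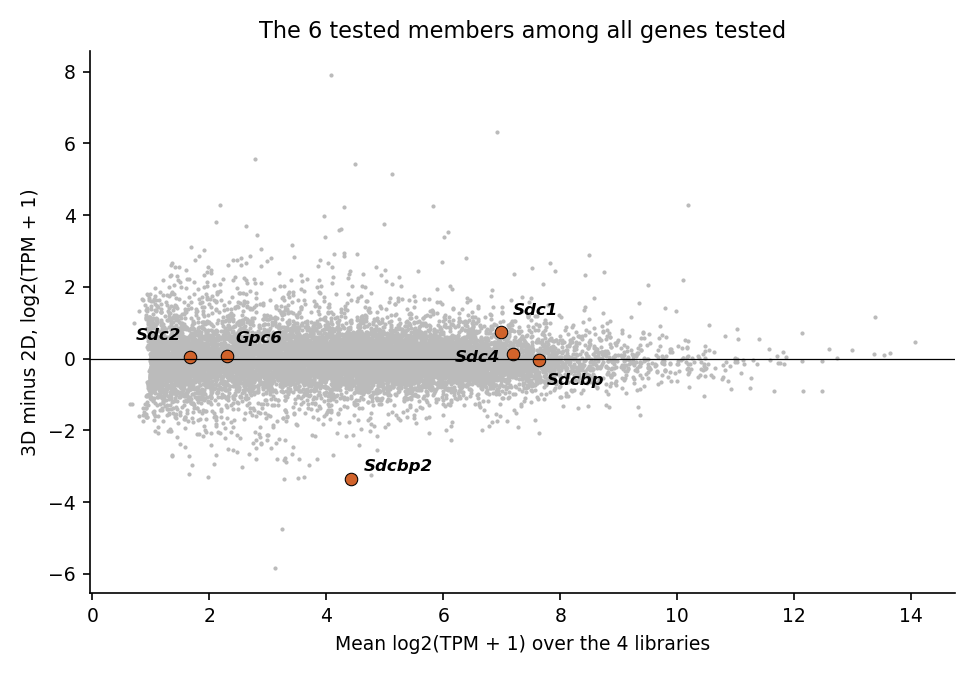
Difference between cultures (3D minus 2D, in log2(TPM + 1)) against mean level (log2(TPM + 1) over the 4 libraries) for all 14116 genes tested in grey, with the 6 tested members in orange. Sdcbp2 lies at -3.36, Sdc1 at 0.76, and the other members between -0.04 and 0.14.

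Genes most like Sdcbp2 in pattern were found by the Euclidean distance between profiles of log2(TPM + 1), each centred on its own mean, over the 4 libraries. The closest were Tcrg-C4 (distance 0.132), Prss27 (0.170) and Xirp1 (0.396). Tcrg-C4 is a gamma chain constant segment of the T cell receptor, Prss27 encodes a membrane-anchored serine protease and Xirp1 an actin-binding protein of striated muscle. Tcrg-C4 measured 83.6 and 81.1 TPM in 2D and 7.38 and 8.25 TPM in 3D, and Prss27 32.3 and 38.3 TPM against 2.58 and 2.63 TPM. With 4 libraries in 2 groups, such a distance says little beyond the size of the change.

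Along chromosome 2, the genes next to Sdcbp2 had smaller differences. Fkbp1a, which encodes the immunophilin FKBP12 and ends 10.9 kb before Sdcbp2, fell, with means (SD, n = 2 each) of 375 ± 4.01 TPM in 2D against 246 ± 1.76 TPM in 3D and a log2 difference of -0.61 (SE 0.03, limma adjusted p 0.000557). Psmf1, a proteasome inhibitor gene 126 kb after it, had -0.30 (SE 0.14, limma adjusted p 0.145). Within 1 Mb on each side, the 21 other tested genes comprised 5 higher, 5 lower and 11 not past an adjusted p-value of 0.05, between -1.02 and 1.88 with a median of -0.13. The window was chosen after the values were seen.

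**Figure D4:**
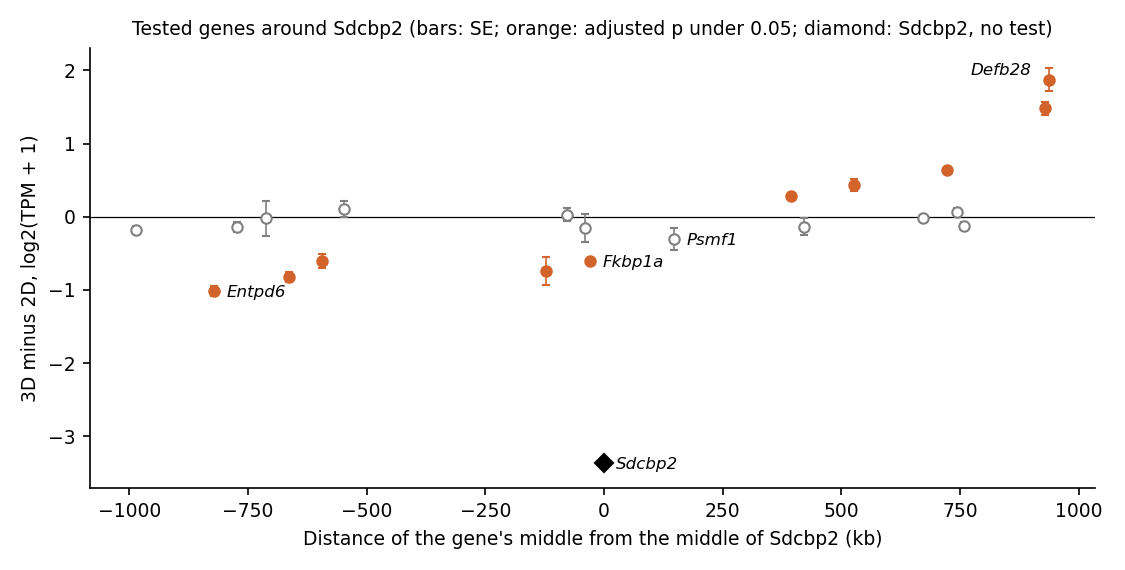
Difference between cultures (3D minus 2D, in log2(TPM + 1), bars SE) of the tested genes within 1 Mb of Sdcbp2, by the distance between gene middles in kb. Orange points had an adjusted p-value under 0.05, grey open points did not, and the black diamond is Sdcbp2. Its value of -3.36 is below the -1.02 to 1.88 of the 21 others.

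Flanking genes of the other members did not show a common direction. Laptm4a, a lysosomal membrane protein gene after Sdc1, rose by 0.45 (SE 0.04, limma adjusted p 0.00114), while Gm4755, just before it, had -0.34 (SE 0.12, limma adjusted p 0.0760). Next to Sdc4, Sys1, a Golgi trafficking gene, rose by 0.31 (SE 0.07, limma adjusted p 0.0198), and Rbpjl had -0.49 (SE 0.15, limma adjusted p 0.0541). Cpq, a peptidase gene after Sdc2, rose by 1.11 (SE 0.09, limma adjusted p 0.00138). Sdcbp itself overlaps Nsmaf on the opposite strand over 12217 bases, which measured 10.9 TPM in 2D and 10.1 TPM in 3D on average, and alignment was strand-aware. Mecr, of mitochondrial fatty acid synthesis and 1017 kb after Sdc3, fell by 0.72 (limma adjusted p 0.000851). Beside Gpc1, the phosphatase gene Dusp28 fell by 0.43 and Cops9 had -0.22 (limma adjusted p 0.0145 and 0.0613). The nearest tested genes on either side of Sdcbp were Ubxn2b, 144 kb before it, and Rab2a, 2127 kb after it. They had 0.01 and 0.12 (limma adjusted p 0.942 and 0.110).

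Genes that build, trim, anchor and use these proteoglycans were then counted in 12 lists. Over the 126 of their 169 genes that were tested, 37 were higher and 28 lower in 3D at a limma adjusted p-value under 0.05, together 51.6% beside 50.5% of all genes tested. Their median log2 difference was 0.03, beside -0.04 over all genes. Leaving out any single library lowered the number called, both in these lists and over all genes tested. Such fits assume that the lone library of a culture varies like the others. By list, the share called was 83.3% for release enzymes and for ligands and receptors, 62.5% for chain modification and for lipoprotein uptake, 54.5% for chain synthesis and 53.3% for tail partners. It was 50.0% for chondroitin enzymes and for other proteoglycans, 46.2% for GPI genes, 30.0% for precursor supply and 25.0% for vesicle machinery, in lists of 4 to 26 tested genes. Gpc2 and Gpc5, the list of other glypicans, had no tested gene.

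Enzymes of the linker and of the polymer build each heparan sulfate chain. Of 11 tested genes of this list 6 were higher and none lower, with a median of 0.17. The count was 4 higher and none lower with no filter on low values, and also with replicate number added to the fit. Extl2, a transferase that can stop chain growth at the linker, rose, with means (SD, n = 2 each) of 15.1 ± 0.541 TPM in 2D against 34.9 ± 0.0550 TPM in 3D and a log2 difference of 1.16 (SE 0.06, limma adjusted p 0.0005). Pxylp1, the phosphatase that clears the linker xylose, rose by 1.69 (SE 0.17, limma adjusted p 0.00226), with 48.7 and 34.2 TPM in the 3D libraries. B4galt7, a linker galactosyltransferase, rose by 0.17 (limma adjusted p 0.0474), with an adjusted p between 0.0944 (without 2D replicate 1) and 0.208 (without 3D replicate 1) when any 1 library was left out. The abundant B3gat3 had -0.10 (limma adjusted p 0.109) and the polymerase gene Ext2 -0.12 (limma adjusted p 0.167).

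Sulfation enzymes were split. Among 8 tested genes for chain modification and cleavage 2 were higher and 3 lower, with a median of -0.20. Ndst1, which replaces acetyl by sulfate on glucosamine, fell by 0.30 (SE 0.06, limma adjusted p 0.0147), from 105 ± 6.54 to 84.9 ± 2.54 TPM (SD, n = 2 each). Of the 3-O-sulfotransferases, Hs3st3b1 rose by 1.10 and Hs3st6 fell by 0.91 (limma adjusted p 0.00109 and 0.00215). Hs2st1 had -0.16 and Hs6st1 0.16 (limma adjusted p 0.0839 and 0.109). Sulf1, Sulf2 and Hpse, which trim or cut chains outside the cell, all averaged under 1 TPM. Without 3D replicate 1 or 2 the list had 3 calls in place of 5, and Ndst1 an adjusted p of 0.0514 and 0.0770.

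Genes that supply chain precursors included Slc26a2, with the highest difference of the biosynthetic lists. Of 10 tested genes 3 were higher and none lower, with a median of 0.10. Slc26a2, the plasma membrane sulfate transporter, rose, with means (SD, n = 2 each) of 35.2 ± 0.893 TPM in 2D against 137 ± 6.64 TPM in 3D and a log2 difference of 1.93 (SE 0.06, limma adjusted p 0.000215). Ugdh, which makes UDP-glucuronate, was 2.48-fold higher in 3D (limma adjusted p 0.000411), with 81.8 and 80.4 TPM in 2D and 191 and 211 TPM in 3D. Ugp2, the enzyme one step earlier, rose by 0.61 (SE 0.06, limma adjusted p 0.00164). Their products also feed glucuronidation and glycogen synthesis.

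Chondroitin and dermatan sulfate enzymes, which add the other chain type carried by some syndecans, had 3 higher and 2 lower of 10 tested and a median of 0.12. Chsy3, a chondroitin synthase, rose by 0.56 and Chst13, a 4-O-sulfotransferase, by 0.42 (limma adjusted p 0.0167 and 0.0409). Chpf fell by 0.36 and Csgalnact2 by 0.25 (limma adjusted p 0.0195 and 0.0226), and Chst12 had 0.13 (limma adjusted p 0.291). Without 3D replicate 1 no call was made in this list, and without each of the other libraries 1 was, in place of 5.

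Enzymes that release ectodomains or process cores comprised 4 higher and 1 lower of 6 tested, 83.3% beside 50.5% of all genes, with a median of 0.27. Adam10, a sheddase, rose, with means (SD, n = 2 each) of 59.8 ± 2.14 TPM in 2D against 77.2 ± 1.60 TPM in 3D and a log2 difference of 0.36 (SE 0.05, limma adjusted p 0.00521). The convertase gene Pcsk6 rose by 0.93 (limma adjusted p 0.000984), and Furin by 1.02 (SE 0.24, limma adjusted p 0.0232). The 2D libraries of Furin were far apart at 111 and 67.9 TPM, and without 3D replicate 1 or 2 its adjusted p was 0.130 and 0.143, and the list had 3 calls in place of 5. The matrix protease gene Mmp14 had 0.08 (limma adjusted p 0.385), and -0.00760 without 2D replicate 1.

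**Figure D5:**
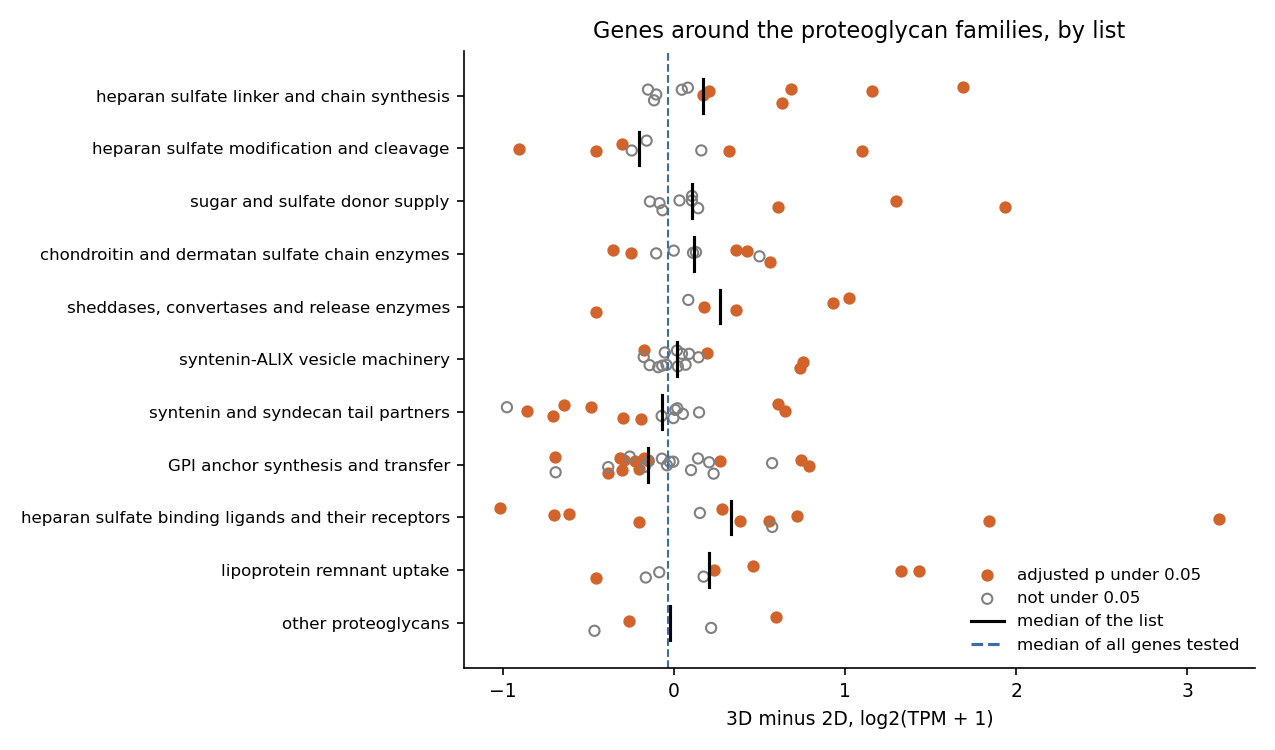
Difference between cultures (3D minus 2D, in log2(TPM + 1)) of every tested gene in 11 lists, 1 point per gene, with vertical scatter for legibility. Filled points had an adjusted p-value under 0.05, black bars are list medians, and the dashed line is the median of all genes tested, -0.04. The highest point is Fgf1 at 3.18.

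Syntenin-1 and ALIX belong to a machinery that buds vesicles into endosomes. Of 16 tested genes 3 were higher and 1 lower, 25.0% beside 50.5% of all genes, with a median of 0.02. Cd63, a tetraspanin of late endosomes that binds syntenin-1, rose, with means (SD, n = 2 each) of 529 ± 17.6 TPM in 2D against 880.3 ± 10.1 TPM in 3D and a log2 difference of 0.73 (SE 0.04, limma adjusted p 0.000486). Cd9, another tetraspanin, rose by 0.76 (SE 0.06, limma adjusted p 0.00134). Cd81 had -0.09 and Arf6, the small GTPase of syntenin recycling, 0.09 (limma adjusted p 0.0641 and 0.0797). Without 2D replicate 1, 3D replicate 1 or 3D replicate 2 there were 2 calls in place of 4. Hgs has 2 overlapping rows, so the split of its reads is uncertain.

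Partners of syndecan tails and syntenins, many of them linkers to actin, had 2 higher and 6 lower of 15 tested, with a median of -0.07. Actn1, alpha-actinin-1, fell, with means (SD, n = 2 each) of 854 ± 44.9 TPM in 2D against 469 ± 6.23 TPM in 3D and a log2 difference of -0.86 (SE 0.05, limma adjusted p 0.000527). Msn, moesin, fell by 0.71 (SE 0.05, limma adjusted p 0.000683). Its relative Ezr, ezrin, had -0.07 and Actn4 had 0.05 (limma adjusted p 0.116 and 0.651), the latter -0.0328 without 2D replicate 2 and -0.04 without 3D replicate 1. Without 3D replicate 1 there were 5 calls in place of 8.

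Genes for making and remodelling GPI anchors, which hold glypicans, had 3 higher and 9 lower of 26 tested, with a median of -0.15. The excess of lower genes among the calls was not kept with no filter on low values, where 3 were higher and 3 lower. The remodelling genes Pgap1 and Pgap2 rose by 0.79 and 0.74 (limma adjusted p 0.00527 and 0.00436). Pigs, a subunit of the transamidase, and Dpm2, of mannose donor synthesis, fell by 0.15 and 0.18 (limma adjusted p 0.0431 and 0.0353). Neither call held without any 1 library, with adjusted p from 0.0551 (without 2D replicate 1) to 0.181 (without 3D replicate 2) for Pigs and from 0.0503 (without 2D replicate 2) to 0.173 (without 3D replicate 2) for Dpm2. Dpm3 had 120.1 and 59.5 TPM in its 2D libraries and was not called (log2 difference -0.17, limma adjusted p 0.747), and had 0.33 without 2D replicate 1 and 0.19 without 3D replicate 2. Without 2D replicate 1, 3D replicate 1 or 3D replicate 2 there were 6, 3 and 5 calls in place of 12.

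Among ligands of heparan sulfate and their receptors 6 were higher and 4 lower of 12 tested, 83.3% beside 50.5% of all genes, with a median of 0.33. Fgf1, acidic fibroblast growth factor, rose, with means (SD, n = 2 each) of 2.52 ± 0.0267 TPM in 2D against 31.0 ± 1.26 TPM in 3D and a log2 difference of 3.18 (SE 0.08, limma adjusted p 0.000202). Ihh, a hedgehog ligand, rose by 1.84 (SE 0.09, limma adjusted p 0.000467). In the other direction Hbegf, the heparin-binding ligand of the EGF receptor, fell by 0.70, and Egfr by 0.61 (limma adjusted p 0.000807 and 0.00168). Met, the receptor of hepatocyte growth factor, fell by 0.20 (limma adjusted p 0.0272), a call lost without 2D replicate 2, 3D replicate 1 or 3D replicate 2 (adjusted p 0.0802, 0.0711 and 0.139). Without 3D replicate 2 there were 6 calls in place of 10.

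Lipoprotein uptake, to which hepatic Sdc1 contributes, had 4 higher and 1 lower of 8 tested genes and a median of 0.20. Apob, the core protein of lipoproteins made in liver, rose, with means (SD, n = 2 each) of 34.5 ± 1.29 TPM in 2D against 88.0 ± 1.89 TPM in 3D and a log2 difference of 1.33 (SE 0.05, limma adjusted p 0.000317). Lipc, hepatic lipase, which binds heparan sulfate, rose by 1.43 (SE 0.11, limma adjusted p 0.000972). Without 3D replicate 1 or 2 there were 2 calls in place of 5.

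Of other proteoglycans 4 of 10 genes were tested, with 1 higher and 1 lower and a median of -0.02. Col18a1, a basement membrane collagen with heparan sulfate chains, rose, with means (SD, n = 2 each) of 375 ± 28.8 TPM in 2D against 568 ± 3.92 TPM in 3D and a log2 difference of 0.60 (SE 0.06, limma adjusted p 0.00217). Cd44, the hyaluronan receptor, fell by 0.26 (SE 0.04, limma adjusted p 0.00877), a call lost without 3D replicate 1 (adjusted p 0.0628), and Agrn, agrin, had 0.22 (limma adjusted p 0.0917). Decorin, biglycan, lumican, serglycin, versican and Cspg4 all averaged under 1 TPM. Without 3D replicate 1 this list had 1 call in place of 2, and without either 2D library it had 3. In 2D, Sdc4 and Sdc1, at 138 and 96.3 TPM, stood below Cd44, Agrn and Col18a1, at 173, 171 and 375 TPM, and above Hspg2, perlecan, at 73.5 TPM. In 3D, Sdc1 and Sdc4, at 163 and 152 TPM, stood above Cd44, at 144 TPM, and Hspg2, at 52.5 TPM, and below Agrn and Col18a1, at 198 and 568 TPM.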

How the data were processed

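RNA-seq libraries of polyadenylated RNA (stranded kit) from AML12 cells, 2 per culture, were analysed. Upstream, per the submitters' processing notes and methods, trimming used cutadapt 1.8.3, then Trimmomatic 0.36. Strand-aware alignment to GRCm38 used HISAT2 2.0.5, and StringTie 1.3.4 gave the abundance of Ensembl genes. The deposited values are TPM, 1 column for each library, unpooled. The deposited fold changes and p-values from DESeq2 were not used. TPM keep no depth, so no counting interval was computed.

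The 14116 genes averaging 1 TPM or more were analysed as log2(TPM + 1) by limma 3.58.1, run in R 4.3.3 (eBayes with trend and robust variance), culture as only factor, two-sided, Benjamini-Hochberg adjustment over all genes tested, called at 0.05. An exact permutation test of 2 against 2 libraries cannot go below 0.333. Fold changes on this scale understate changes of low genes. The fit was tested on simulated libraries of 14116 genes, with 100 genes changed 2-fold and 100 changed 4-fold. It recovered 61 and 89 of these, with 3 false among 153 calls. Far more genes were called in the real data, so this setting differs from them.

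The members and lists were chosen with earlier results of these data known. Named genes were all members, and from each list up to 3 of highest mean TPM and up to 2 of largest called change, the 3 closest profiles to Sdcbp2, and flanking or overlapping genes. Other genes were named after their values were seen. Some genes that this rule names are not reported here. Coding sequences came from GENCODE M21 (GRCm38), with proteins translated and aligned with Biopython 1.88 (BLOSUM62), and promoters from RefSeq. Alternatives were other pseudocounts, filters, scalings, a replicate block, a constant prior variance and each library left out.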

Additional observations from a re-analysis of the deposited data

How the results depend on the processing

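With 2 libraries per culture and no known depth, small differences and levels under 1 TPM are the main limit. The count of genes called, 7122, was 6248 with the replicate block, whose numbers did not pair the libraries (correlation of deviations -0.0549), and ranged from 4720 (without 3D replicate 1) to 5954 (without 2D replicate 2). Without single libraries, list calls ranged from 33 to 50 in place of 65: heparan sulfate modification 3 to 5, chondroitin enzymes 0 to 1, release enzymes 3 to 4, vesicle machinery 2 to 3, tail partners 5 to 8, GPI genes 3 to 8, ligands and receptors 6 to 8, lipoprotein uptake 2 to 4 and other proteoglycans 1 to 3. With no filter on low values, calls were 2 for chondroitin enzymes, 3 for release enzymes, 2 for vesicle machinery, 6 for GPI genes and 3 for lipoprotein uptake. The replicate block gave 3 for chondroitin enzymes and 3 for release enzymes, and a constant prior variance 2 for vesicle machinery.

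Members whose libraries did not overlap numbered 5 of 8, beside 54.1% of all rows. Without single libraries they numbered 6 to 8 (8 without 2D replicate 2), beside 71.6% to 72.7% of all rows. Among the 6 tested members there were 3, beside 77.5% of genes tested. Without single libraries there were 4 to 6 of these, beside 88.1% to 89.4% of genes tested. The difference of Sdcbp was 0.0107 under quantile normalization and ranged from -0.10 to 0.0157 without single libraries, that of Sdc2 from -0.0194 to 0.11 and that of Gpc6 from -0.0232 to 0.18, each changing sign without 2D replicate 1. Pseudocounts of 0.1 and 5 gave -3.55 and -2.77 for Sdcbp2, 1.797 and 0.16 for Sdc3, and -1.15 and -0.07 for Gpc1. Of 609 values for 47 named list genes, 534 kept direction and side of the threshold, 64 lost the call, 6 gained it and 5 changed sign. The cause was not tested.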
